A study of Mus musculus with 2 samples.

Results

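Cardiac fibroblasts that carried RNA of Cdkn1a were compared with cardiac fibroblasts that did not, separately in each of 2 single-cell libraries. Cdkn1a encodes p21, an inhibitor of cyclin-dependent kinases. A cell was taken as a fibroblast where the mean deposited value of Dcn, Col1a2, Lum and Col3a1 was at least 1.5 and above the mean of the macrophage genes Lyz2, C1qa, C1qb and Fcer1g. The groups were then chosen by the measured Cdkn1a value itself, above 0 or at 0. In the library called Heart1, 100 of 206 fibroblasts had Cdkn1a RNA, and in Heart2 274 of 939 had it. Together these were 374 of 1145 fibroblasts, among 1426 cells in all, and 771 fibroblasts had none.

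The cells came from hearts of C57BL/6 mice aged 20 to 22 months that carry the p16-FDR allele, which couples the p16 gene Cdkn2a to FLP recombinase and to a diphtheria toxin receptor joined to the red fluorescent protein mCherry. Flow cytometry kept mCherry-positive cells, which were profiled with a droplet kit that reads the 3′ end of each RNA and counts unique molecular identifiers (UMIs). Every cell of both groups shared this genotype, age and sort, and the labels give no second genotype, age or treatment. The sort chose cells by the reporter, so fibroblasts outside that gate were not sampled. Which sample record each library is, and whether the libraries came from separate animals, is not stated. So p-values cannot be taken to measure spread between animals. They rest on the spread between these libraries pooled over genes, which may be technical.

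p21 holds cells out of division by blocking cyclin-dependent kinases and by binding PCNA, and it is a standard marker of senescence, a lasting arrest. The tumour suppressor p53 is its best known activator and turns on a set of other genes with it, among them genes for DNA repair and for cell death. Cdkn1a is also switched on without p53, by growth factor, stress and early-response signals. Cardiac fibroblasts make the collagen matrix of the heart wall and are rarely in division in an adult heart.

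The libraries held 3304045 UMIs (Heart1, 266 cells) and 10632723 UMIs (Heart2, 1160 cells), with a median of 11882.5 and 8772 UMIs per fibroblast. No cell barcode occurred in both libraries. Fibroblasts made up 77.4% and 80.9% of cells, and the label held against genes the rule did not use: the fibroblast receptor gene Pdgfra had a UMI in 85.0% and 94.2% of them, and the cardiac fibroblast factor Tcf21 in 80.1% and 90.8%. The lowest mean of the 4 fibroblast genes among members was 1.92 in Heart1 and 1.54 in Heart2, and the highest just below the limit was 1.29 and 1.33. A doublet caller marked 1 fibroblast in each library.

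Cdkn1a itself set the groups, so it is described without a test. Its gene lies on chromosome 17 of the mouse build GRCm38, from 29090976 to 29100727 on the plus strand. It had a UMI in 48.5% of Heart1 fibroblasts (95% exact binomial interval 41.5 to 55.6) and 29.2% of Heart2 fibroblasts (26.3 to 32.2). These intervals, like all others here, cover counting error only. Over all fibroblasts it reached 234.5 UMIs per 1000000 (CPM) in Heart1 and 151.4 in Heart2. With every cell thinned to 3000 UMIs the shares were 28.6% and 17.5%, so Heart1 stood above Heart2 before and after thinning. The RNA was uneven among positive cells. In Heart1, 36 cells had 1 UMI, 31 had 2 to 5 and 33 had 6 or more, and in Heart2 these numbers were 125, 86 and 63. The highest cell had 32 UMIs in Heart1 and 57 in Heart2, and the 10 highest cells held 38.3% and 27.6% of all Cdkn1a UMIs. So the boundary between the groups ran through 1 UMI, and a cell without a UMI may still hold the RNA.

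Cells on the macrophage side of the rule also had Cdkn1a, in 53.8% of 39 cells in Heart1 and 37.1% of 210 cells in Heart2, so no cell type here served as one that lacks the gene.

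The share of fibroblasts with Cdkn1a differed among 6 sub-clusters, groups of fibroblasts described here without a test or a cell type name. They were built from 1500 variable genes, with the gene lists used below, cell type markers, rule genes and Cdkn1a left out. Leading genes that are also on those lists, such as Thbs4 and Hsd11b1, describe the sub-clusters but did not build them. Sub-cluster 4, led by Hsd11b1, Blnk and Fap, had the RNA in 25.9% of 27 cells in Heart1 (11.1 to 46.3) and 20.9% of 417 cells in Heart2 (17.1 to 25.1). Sub-cluster 1, led by the matrix genes Thbs4, Cilp and Postn, had it in 54.0% of 87 and 44.0% of 100 cells. Sub-cluster 6, led by Wif1, Id4 and Clu, had it in 52.7% of 55 and 43.8% of 32. Sub-cluster 2, led by Hp, Inmt and Fst, had 42.9% of 28 and 28.5% of 253. Sub-cluster 5, led by Ly6c1 and Cd248, had 42.4% of 132 cells in Heart2 (33.9 to 51.3) and 5 of 9 cells in Heart1. Sub-cluster 3, led by the interferon-induced Cxcl10 and Ifit1, had 0 cells in Heart1 and 5 in Heart2, 1 of them with Cdkn1a. At 3000 UMIs per cell, sub-cluster 4 was still the lowest of the 5 larger sub-clusters in both libraries, at 14.8% and 13.2%, against 32.2% and 28.0% in sub-cluster 1.

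**Figure D1:**
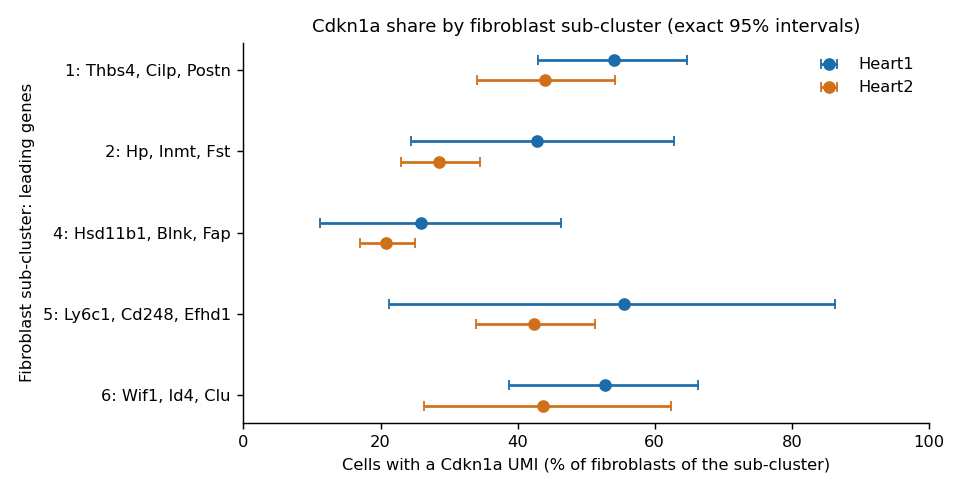
Share of fibroblasts with a Cdkn1a UMI (percent) in each fibroblast sub-cluster and library, with 95% exact binomial intervals that cover counting error only. Of the 5 larger sub-clusters, sub-cluster 4 sits lowest in both libraries, at 25.9% and 20.9%, and sub-clusters 1 and 6 sit at 43.8% to 54.0% in both libraries.

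Cells with Cdkn1a were deeper than cells without: medians of 13502.5 against 11134 UMIs in Heart1 and 9239 against 8564 in Heart2. To compare at equal depth, each positive cell was paired with a negative cell of the same library within 10% of its UMI count, which kept 81 pairs in Heart1 and 272 in Heart2. After pairing the medians were 12207 against 11917 and 9213.5 against 9211 UMIs. In Heart1 19 positive cells and in Heart2 2 found no partner. The paired positive cells held 445 of the 640 Cdkn1a UMIs of Heart1 fibroblasts and 1233 of the 1280 in Heart2. Of the 36 Heart1 cells with 1 UMI, 32 were paired, so most unpaired Heart1 cells had more than 1. UMIs were summed over the cells of each status and library, and the difference between statuses was tested with limma over 7942 genes with the library as a block, on log2 of CPM plus 5. A log2 difference on this scale understates the change of low genes. All CPM values below are for these paired cells, written with Cdkn1a RNA first and without second. The 4 fibroblast genes that chose the cells were lower with Cdkn1a in both libraries, for example Col3a1 at 1514 against 1795 and 1630 against 2222 CPM, values that are given without a test.

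With Benjamini-Hochberg adjusted p-values under 0.05, 112 genes (1.41%) were higher and 79 (0.995%) lower in cells with Cdkn1a RNA. Agreement between libraries was asked for as a difference of at least 1.5-fold in the same direction in both, which 31 genes (0.39%) met upward and 13 (0.164%) downward. Of these 44 genes, 37 also passed limma, 28 of them higher and 9 lower, while 2 genes differed by 1.5-fold in opposite directions. Simple sharing of sign was far more common, with 2494 genes (31.4%) above 0 in both libraries and 1949 (24.5%) below. The smaller library varied more: 571 genes were 1.5-fold higher and 313 lower in Heart1 alone, against 96 and 58 in Heart2. With 2 libraries limma had 1 residual degree of freedom and took the spread wholly from its trend over genes, and an exact permutation over 2 pairs cannot go below 0.5. So a gene's p-value and SE do not reflect how far the libraries disagreed for that gene. Among the 191 genes that passed, 3 had opposite signs in the libraries and 14 had log2 differences more than 1 apart. Without the library as a block limma called 0 genes, with 102 at an unadjusted p under 0.05.

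**Figure D2:**
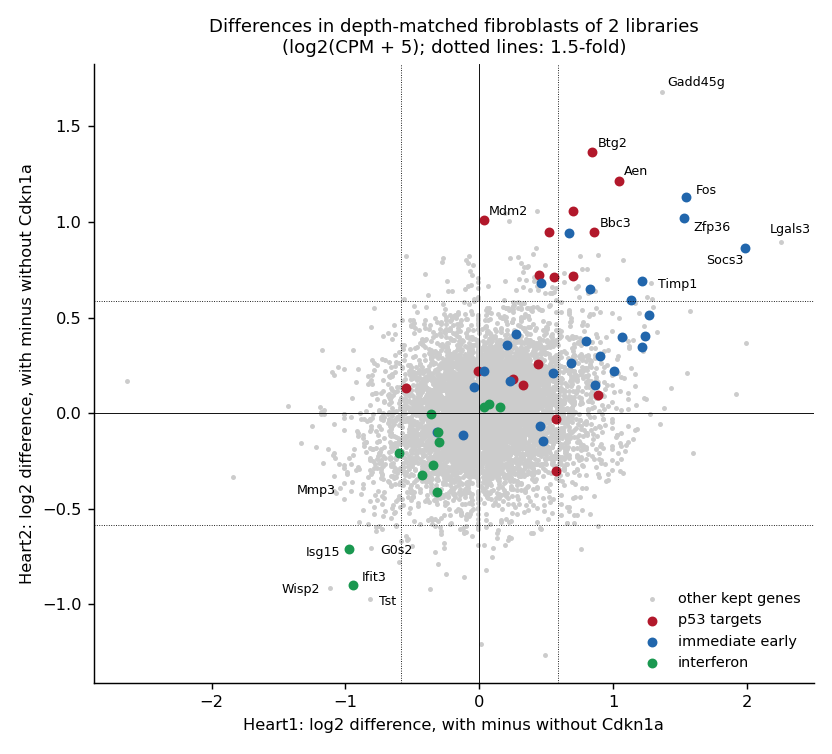
Log2 difference in CPM plus 5 between paired fibroblasts with and without Cdkn1a RNA, in Heart1 (x axis) and Heart2 (y axis), 1 point per gene. Of 7942 genes, 31 lie at least 1.5-fold up and 13 at least 1.5-fold down in both libraries.

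Several genes known as p53 targets rose with Cdkn1a RNA, and none of those tested fell. Of 29 on the list, 17 had a UMI in at least 10% of fibroblasts in each library and were tested: 8 passed limma as higher and none as lower, against 1.41% and 0.995% of all genes. At an unadjusted p under 0.05 limma gave 10 higher and 0 lower, and with voom weights 9 and 0 passed adjustment. Of the 17, 13 were above 0 in both libraries and 0 below 0 in both, against 31.4% and 24.5% of all genes. The median log2 difference over the 17 was 0.52, against 0.03 over all genes.

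Aen encodes a p53-induced nuclease that acts in cell death. It stood at 48.8 against 21.1 CPM in Heart1 and 64.0 against 24.7 CPM in Heart2. The cells with Cdkn1a were higher in both libraries, by 1.13 ± 0.20 on the log2 scale (SE; limma adjusted p = 3.19e-06), and 33 against 19 of 81 cells in Heart1 and 103 against 57 of 272 in Heart2 had a UMI. Among all 7942 genes Aen had the highest rank when genes were ordered by the smaller of their 2 gains, 1 per library, in share of cells with a UMI, the measure of likeness to Cdkn1a: 17.3 percentage points in Heart1 and 16.9 in Heart2. Next came Exoc4, a subunit of the exocyst (17.3 and 15.8), Klf4 (14.8 and 16.5), Zmat3 (13.6 and 12.5) and Il10rb (12.3 and 12.9), of which Il10rb did not pass limma (adjusted p = 0.308).

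Btg2, an antiproliferative p53 target that is also an early-response gene, stood at 175 against 95.6 CPM in Heart1 and 116 against 42.0 CPM in Heart2. It was higher in both, by 1.10 ± 0.14 (limma adjusted p = 1.18e-12), but a single Heart2 cell held 72 of its 297 UMIs there. Bbc3, which encodes the cell death protein PUMA, stood at 25.9 against 12.1 CPM and 26.5 against 11.4 CPM, a log2 difference of 0.90 ± 0.24 (limma adjusted p = 0.0101). Zmat3, an RNA-binding protein gene, stood at 35.8 against 20.1 and 53.5 against 23.1 CPM, and Trp53inp1, which encodes a p53-linked stress protein, at 35.8 against 20.1 and 38.7 against 21.6 CPM. Both rose past the limma threshold (adjusted p = 0.00216 and 0.0451).

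Another 3 targets rose by less than 1.5-fold in 1 library. The cyclin G1 gene Ccng1 stood at 52.8 against 35.2 and 66.0 against 31.8 CPM (limma adjusted p = 0.00431). Phlda3, an inhibitor of Akt signalling, stood at 341 against 248 and 335 against 201 CPM (limma adjusted p = 1.43e-05), and Bax, the cell death effector, at 163 against 110 and 215 against 129 CPM (limma adjusted p = 3.65e-05). In each of the 8 genes both libraries had the higher CPM in cells with Cdkn1a. For Ccng1 in Heart1, 26 cells with Cdkn1a against 27 without had a UMI, so the higher sum there did not come from more cells. A single Heart1 cell held 9 of its 53 UMIs with Cdkn1a. With log values averaged over cells in place of summed UMIs, Ccng1 and Trp53inp1 missed the threshold (limma adjusted p = 0.0952 and 0.282), and with exactly 1 Cdkn1a UMI Bbc3 was at -0.34.

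The other 9 tested targets did not pass. Mdm2, which encodes the ubiquitin ligase that restrains p53, stood at 27.9 against 27.2 CPM in Heart1 and 46.1 against 20.4 CPM in Heart2, so only Heart2 differed by 1.5-fold (limma adjusted p = 0.246). Ei24 showed the opposite pattern: its log2 difference was 0.89 in the first library and 0.10 in the second (limma adjusted p = 0.0898). Gadd45a was at 0.44 and 0.26 (limma adjusted p = 0.457), and Ercc5 at 0.32 and 0.14. Fas, at -0.01 and 0.22, and Apaf1, at 0.57 and -0.03, had opposite signs in the libraries. The p53 gene Trp53 itself was at 0.35 and 0.30 (limma adjusted p = 0.396).

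Of the list, 12 targets were too rare to test, and 9 of them had a higher CPM with Cdkn1a in both libraries and none a lower CPM in both. This was not particular to p53 targets: of 10 early-response genes too rare to test, 10 were higher in both libraries and 0 lower. The share over all untested genes is not given here. The following 5 p53 targets were chosen after their values were seen. Gdf15, a secreted stress cytokine, had 5 UMIs against 0 in Heart1 and 21 against 0 in Heart2, at least 1.65-fold and 6.97-fold higher when 0 is set to 3 counts per library. Psrc1 had 14 UMIs against 0 in Heart1 and 23 against 4 in Heart2, and the receptor gene Eda2r had 6 against 0 and 29 against 6. Perp had 10 against 1 and 16 against 1, and Sesn2 had 4 against 0 and 22 against 7.

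**Figure D3:**
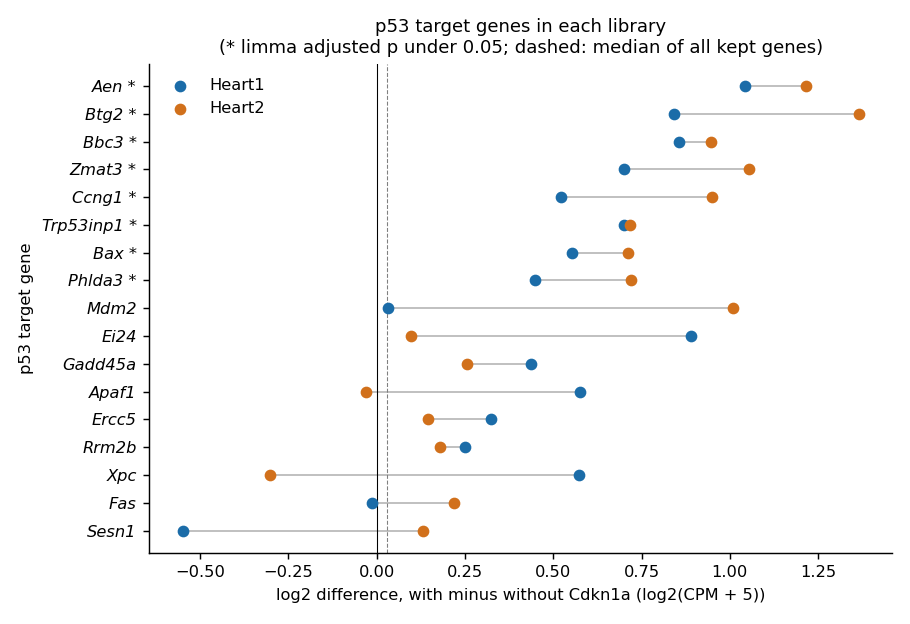
Log2 difference in CPM plus 5 (with minus without Cdkn1a RNA, paired fibroblasts) for the 17 tested p53 targets, 1 point per library. Both points lie above 0 for 13 genes, with Aen at 1.04 in Heart1 and 1.22 in Heart2 and Mdm2 at 0.03 and 1.01.

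Upstream sequence is shown for Cdkn1a and for a pair of the targets that rose, because p53 acts through a known DNA element. The windows are the 250 bases before a RefSeq start on GRCm38.p6, read 5′ to 3′ on the gene's strand, and capitals mark each match to the unit of the p53 response element, searched on both strands. They lie at chr17:29090729-29090978 for Cdkn1a and chr7:78895808-78896057 for Aen, both on the plus strand, and at chr11:40755287-40755536 for Ccng1 on the minus strand.
Cdkn1a: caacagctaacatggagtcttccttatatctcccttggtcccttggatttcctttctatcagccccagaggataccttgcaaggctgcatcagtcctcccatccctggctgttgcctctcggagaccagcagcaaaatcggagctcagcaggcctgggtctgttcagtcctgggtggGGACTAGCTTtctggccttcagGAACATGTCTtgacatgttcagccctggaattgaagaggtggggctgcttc
Aen: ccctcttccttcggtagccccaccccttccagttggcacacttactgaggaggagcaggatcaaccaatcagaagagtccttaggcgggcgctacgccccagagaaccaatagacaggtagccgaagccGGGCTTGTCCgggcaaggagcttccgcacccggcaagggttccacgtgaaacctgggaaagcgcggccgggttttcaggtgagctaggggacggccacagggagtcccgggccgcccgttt
Ccng1: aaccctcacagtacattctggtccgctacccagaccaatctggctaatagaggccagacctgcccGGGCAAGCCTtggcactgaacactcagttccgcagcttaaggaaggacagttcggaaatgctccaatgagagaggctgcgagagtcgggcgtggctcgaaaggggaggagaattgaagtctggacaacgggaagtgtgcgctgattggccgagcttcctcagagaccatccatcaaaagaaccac
The Cdkn1a window held 2 matches, 73 to 64 and 51 to 42 bases before the start, and Aen and Ccng1 held 1 each. The GENCODE gene model of Aen starts upstream of the RefSeq start used, so 204 of the 250 bases, the match included, lie inside that annotated gene. Cdkn1a and Aen each have 2 windows in the table, of which 1 held a match. Of 32851 windows of this length in the table, 7.13% held the unit. Of the 8 targets that rose, 6 were found in the table, and 3 of their 9 windows held it (Aen, Bax and Ccng1). The 9 tested targets that did not pass held it in 4 of 8 windows, and the tested interferon genes in 3 of 11. A match describes letters in a window and is not a measured site.

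Early-response genes, which cells switch on within minutes of a stimulus and which tissue dissociation is known to induce, were also higher. Of 37 on the list 27 were tested. By limma 17 passed as higher and none as lower, against 1.41% and 0.995% of all genes (19 and 0 at an unadjusted p under 0.05, 17 and 0 with voom weights). At least 1.5-fold higher in both libraries were 7 (0.39% of all genes). The median was 0.59, made up of 0.80 in Heart1 and 0.36 in Heart2, so Heart1 carried the larger differences.

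Fos, a subunit of the AP-1 transcription factor, stood at 1390 against 473 CPM in Heart1 and 244 against 109 CPM in Heart2. It rose by 1.34 ± 0.10 (limma adjusted p = 3.28e-33), though the level without Cdkn1a in Heart1 exceeded the level with it in Heart2. Zfp36, which encodes an RNA decay factor, stood at 389 against 132 and 87.1 against 40.4 CPM (1.27 ± 0.13; limma adjusted p = 3.6e-19). One Heart2 cell held 67 of its 223 UMIs in that library, and with the 3 highest early-response cells of each sum removed the log2 difference was 0.70. Socs3, a feedback inhibitor of cytokine signalling, stood at 174 against 40.2 and 39.0 against 19.2 CPM (limma adjusted p = 5.7e-13). Klf4, a transcription factor gene that can itself act on Cdkn1a, stood at 366 against 228 and 349 against 179 CPM (limma adjusted p = 9.07e-11). Of these 4 genes Klf4 had the closest levels in the libraries. Junb, another AP-1 subunit, was at 2125 against 899 CPM in Heart1 and only 396 against 298 CPM in Heart2.

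Gadd45g, a growth arrest gene outside the lists, ranked first among tested genes by the smaller of its 2 log2 differences, 1 per library. It stood at 261 against 98.6 CPM in Heart1 and 72.6 against 19.2 CPM in Heart2 (1.52 ± 0.15; limma adjusted p = 1.83e-21). A single cell held 90 of its 186 UMIs in Heart2, the same cell that had the most Zfp36, Btg2, Fos and Cxcl1 UMIs of the paired cells with Cdkn1a there. Without the 3 highest early-response cells the Gadd45g difference was 1.01. By cells, 40 against 24 had a Gadd45g UMI in Heart1, and 36 against 28 in Heart2. Pairing within sub-clusters put Gadd45g at 0.41 (Heart1) and 1.43 (Heart2), short of the threshold (limma adjusted p = 0.0896). Paired within tertiles of summed early-response UMIs, Gadd45g passed (limma adjusted p = 5.91e-08). The libraries then stood at 0.05 (Heart1) and 1.98 (Heart2), so only Heart2 differed by 1.5-fold.

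Other stress genes moved less evenly. Ddit3, which encodes the stress factor CHOP, stood at 54.8 against 29.2 CPM in Heart1 and 71.5 against 40.4 CPM in Heart2 (limma adjusted p = 0.00132). It was 1 of 3 genes of the integrated stress response that rose out of 10 tested, with Atf4 (log2 1.22 and 0.32) and Atf5 (0.46 and 0.38). Of 12 heat shock genes 6 rose, but the list's median was 0.74 in Heart1 and 0.09 in Heart2. Hspa1a was at 1932 against 637 CPM in Heart1 and 168 against 195 CPM in Heart2, so its call came from 1 library and its sign differed in the other. The metallothionein Mt2, which binds metal ions, stood at 168 against 107 and 104 against 60.8 CPM (limma adjusted p = 5.77e-05). Mt1 and Mt2 were the 2 that rose among 13 tested genes of oxidative, iron and metal handling. None fell in these 3 stress lists by limma, also at an unadjusted p under 0.05 (0 in each) and with voom weights (0 in each). Over all tested genes 1.41% rose and 0.995% fell by limma. Of 8 tested glucocorticoid and FOXO targets 0 passed limma (2 higher and 0 lower unadjusted, 0 with voom weights) and the median was 0.11.

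Among genes for secreted proteins the lists moved in mixed directions. Of 20 tested secretory genes linked to senescence 3 rose and 1 fell, against 1.41% and 0.995% of all genes, and the list's median was -0.02. The chemokine gene Cxcl1 stood at 119 against 62.4 CPM and 71.5 against 38.0 CPM (0.86 ± 0.16; limma adjusted p = 7.9e-06). A single Heart2 cell held 81 of its 183 UMIs, and without the 3 highest early-response cells the Heart2 difference was 0.37, under 1.5-fold. Cxcl1 also missed the threshold by mean log value (limma adjusted p = 0.286), within sub-clusters (0.147) and within early-response tertiles (0.112). Timp1, a protease inhibitor, stood at 628 against 256 and 140 against 85.5 CPM, with 263 of its 631 Heart1 UMIs in 1 cell. Serpine2, another protease inhibitor, stood at 553 against 438 and 613 against 360 CPM (limma adjusted p = 1.57e-05). Mmp3, a matrix protease, fell, at 252 against 524 and 146 against 194 CPM (limma adjusted p = 3.18e-08). That call did not hold without cells holding macrophage RNA (limma adjusted p = 0.729), and with at least 2 Cdkn1a UMIs Mmp3 was at 0.095. Cxcl1 was at -0.26 with exactly 1 Cdkn1a UMI.

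Several secreted or metabolic genes outside those lists were at least 1.5-fold higher in both libraries. Pgf, a vascular growth factor, stood at 105 against 59.4 and 186 against 108 CPM (limma adjusted p = 3.15e-06). Gas6, a ligand of TAM receptors, stood at 503 against 304 and 649 against 390 CPM (limma adjusted p = 1.26e-09) and had a UMI in most cells of both groups. Ephx1, an epoxide hydrolase, stood at 160 against 102 and 207 against 127 CPM (limma adjusted p = 1.57e-05). Ndrg1, a gene induced by low oxygen and other stress, stood at 98.6 against 44.3 and 40.6 against 21.2 CPM (limma adjusted p = 4.81e-05). Lgals3, the galectin-3 gene, had the largest fitted difference of these (66.7 against 10.1 and 31.2 against 14.5 CPM), but 44 of its 67 Heart1 UMIs came from 1 cell.

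Matrix genes leaned lower: of 24 tested, 5 fell (Col5a3, Col6a3, Col14a1, Eln and Ogn), 1 rose (Vcan) and the median was -0.19. Over all tested genes 0.995% fell and 1.41% rose by limma. Below 0 in both libraries were 14 of the 24, against 24.5% of all genes, and at an unadjusted p under 0.05 limma gave 11 lower and 1 higher. With voom weights 4 fell and 0 rose, and with cells paired within sub-clusters 0 passed in either direction and the median was -0.12. Col6a3, a type VI collagen chain, stood at 180 against 281 and 311 against 429 CPM (limma adjusted p = 7.07e-05), and within sub-clusters its difference was -0.25 (limma adjusted p = 0.597). Of 14 TGF-β and myofibroblast genes 2 rose, Thbs1 and Cyr61, and none fell (7 higher and 0 lower at an unadjusted p under 0.05, 2 and 0 with voom weights). Thbs1, the thrombospondin-1 gene, stood at 355 against 142 and 135 against 87.5 CPM (limma adjusted p = 3.6e-12). Fewer Heart2 cells with Cdkn1a than without had a Thbs1 UMI (58 against 71), so its higher sum there came from fewer cells.

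In all, 9 genes were at least 1.5-fold lower in both libraries and also passed limma, out of 13 (0.164%) with that agreement. Wisp2, a secreted matricellular protein gene of the CCN family, stood at 193 against 424 CPM in Heart1 and 71.8 against 140 CPM in Heart2. It fell by 1.01 ± 0.12 on the log2 scale (limma adjusted p = 2.14e-14). G0s2, an inhibitor of fat breakdown, stood at 115 against 204 and 374 against 613 CPM (limma adjusted p = 1.76e-09). Tst, a mitochondrial sulphur transferase gene, stood at 33.9 against 63.4 and 19.9 against 43.9 CPM (limma adjusted p = 0.000555). Hsd11b1, which encodes the enzyme that regenerates active glucocorticoid, stood at 142 against 216 and 424 against 678 CPM (limma adjusted p = 1.11e-06). Hsd11b1 also led sub-cluster 4, which had the lowest share with Cdkn1a among the 5 larger sub-clusters, and with cells paired within sub-clusters it was at -0.17 (limma adjusted p = 0.751). G0s2 was at -0.59 there (limma adjusted p = 0.0603) and Tst at -0.90 (limma adjusted p = 0.101), while Wisp2 stayed past the threshold at -1.07 (limma adjusted p = 0.00137).

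Interferon-induced genes were lower as a list by count of sign, though few passed. Of 12 tested, 2 fell by limma (0.995% of all genes), 9 were below 0 in both libraries (24.5% of all genes) and the median was -0.27. None rose (0 at an unadjusted p under 0.05, 0 with voom weights). Ifit3, an antiviral protein gene, stood at 27.9 against 58.4 CPM in Heart1 and 39.8 against 78.4 CPM in Heart2 (limma adjusted p = 3.84e-05). Isg15, a ubiquitin-like modifier, stood at 30.9 against 65.4 and 30.5 against 53 CPM (limma adjusted p = 0.000663), with 45 of its 135 Heart2 UMIs without Cdkn1a in 1 cell. Neither fell past the threshold when log values were averaged over cells in place of summing UMIs (limma adjusted p = 0.0741 for Ifit3 and 0.571 for Isg15), nor with cells paired within sub-clusters (0.126 and 0.269).

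The windows upstream of these genes are shown because the element through which interferon acts is known. Capitals mark GAAA, any 2 bases and GAAA again, on either strand, and matches may overlap. The windows lie at chr19:34583279-34583528 on the plus strand for Ifit3 and chr4:156200819-156201068 on the minus strand for Isg15.
Ifit3: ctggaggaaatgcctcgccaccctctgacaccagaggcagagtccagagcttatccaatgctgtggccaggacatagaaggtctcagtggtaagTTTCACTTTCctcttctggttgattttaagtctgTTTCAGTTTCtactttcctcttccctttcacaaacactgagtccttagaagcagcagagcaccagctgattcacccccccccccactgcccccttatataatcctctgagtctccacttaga
Isg15: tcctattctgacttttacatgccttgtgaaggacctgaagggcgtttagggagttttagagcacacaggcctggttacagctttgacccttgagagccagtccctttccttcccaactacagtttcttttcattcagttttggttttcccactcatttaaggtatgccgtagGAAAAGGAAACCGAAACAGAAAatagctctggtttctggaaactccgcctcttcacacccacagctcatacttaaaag
Ifit3 held 2 matches and Isg15 held 3 that overlap, and 2.98% of all 32851 windows held at least 1. Of the 12 tested interferon genes 10 were found in the table, and 4 of their 11 windows held a match. These belonged to Ifit3, Isg15, Bst2 and Stat2, and Bst2 and Stat2 did not pass limma.

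Few of the tested cell cycle genes around p21 passed, where 1.41% of all genes were higher and 0.995% lower by limma. Of 7 tested inhibitors none passed limma in either direction (1 higher and 1 lower at an unadjusted p under 0.05, 0 with voom weights) and the median was 0.03. Cdkn1b, the p27 gene, was at log2 0.36 and 0.02, and Cdkn1c at -0.50 and 0.19. Cdkn2c was at -0.03 and 0.09, and Cdkn2d at 0.15 and 0.27. Among 6 tested cyclins, kinases and PCNA, 1 fell: Ccnd1, the cyclin D1 gene, at 113 against 174 and 65.2 against 91.0 CPM (limma adjusted p = 0.00601). Of 4 tested proliferation genes and 7 of the BCL2 family none passed limma; unadjusted, 1 proliferation gene was lower and 0 BCL2 genes differed, and voom weights gave 0 in both lists. The p16 gene Cdkn2a, whose reporter sorted these cells, was too rare to test. It stood at 156 against 49.3 CPM in Heart1 (157 against 49 UMIs) and 6.25 against 0.39 CPM in Heart2 (16 against 1 UMIs), higher with Cdkn1a in both. By cells, 38 of 81 cells with Cdkn1a (46.9%, 35.7 to 58.3) and 25 of 81 without (30.9%, 21.1 to 42.1) had a UMI in Heart1, and 5 against 1 of 272 in Heart2. The neighbouring p15 gene Cdkn2b, also untested, stood at 61.7 against 46.3 and 12.5 against 7.45 CPM.

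The counts differed with the number of Cdkn1a UMIs in the positive cells. With positive cells of exactly 1 UMI and their partners, 2 genes were higher and 6 lower by limma, and with positive cells of 2 or more, 104 and 66. The p53 list's median was 0.09 with 1 UMI and 0.78 with 2 or more, and that of the early-response list 0.32 and 0.82. The interferon list ran the other way, at -0.34 and -0.19. The numbers of pairs were 35 and 125 against 49 and 147, and the difference between the classes was not tested. A cell with 1 UMI is also nearest the limit of detection.

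**Figure D4:**
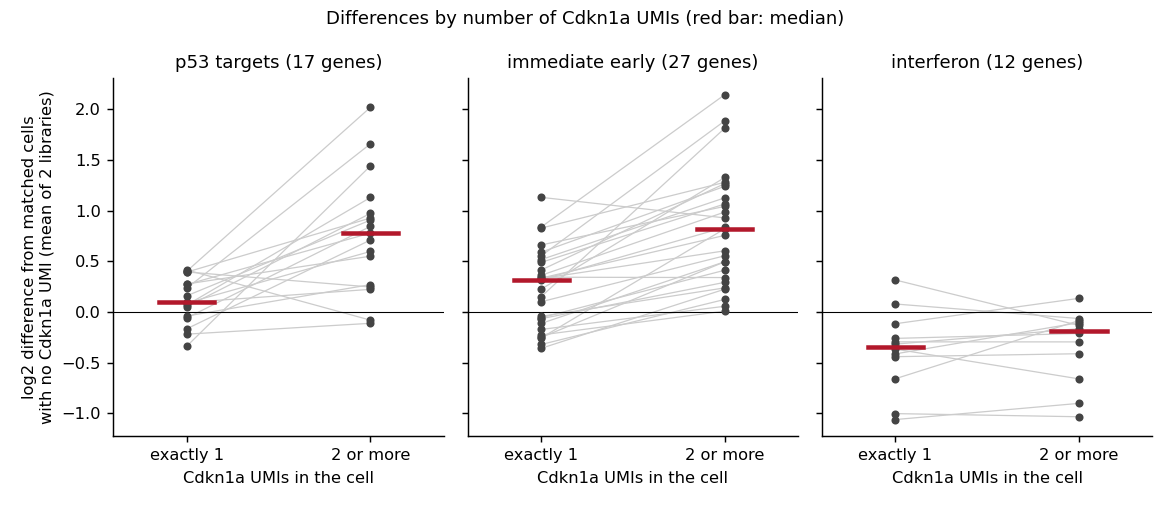
Median log2 difference in CPM plus 5 over the p53, early-response and interferon lists, for positive cells with exactly 1 Cdkn1a UMI and with 2 or more, against paired cells without. The p53 median goes from 0.09 to 0.78, the early-response median from 0.32 to 0.82.

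The p53 and early-response genes were set side by side per cell at 3000 UMIs, splitting fibroblasts at the medians of their summed UMIs. These splits use measured values and are descriptions. Cdkn1a had a UMI in 12.3% of 73 Heart1 cells low in both lists, in 33.9% of 59 high in early-response genes alone, in 37.1% of 35 high in p53 targets alone and in 43.6% of 39 high in both. In Heart2 these shares were 8.76% of 274, 10.0% of 209, 21.3% of 239 and 31.3% of 217. Cells high in both lists were highest in each library, and cells high in early-response genes alone differed between libraries.

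**Figure D5:**
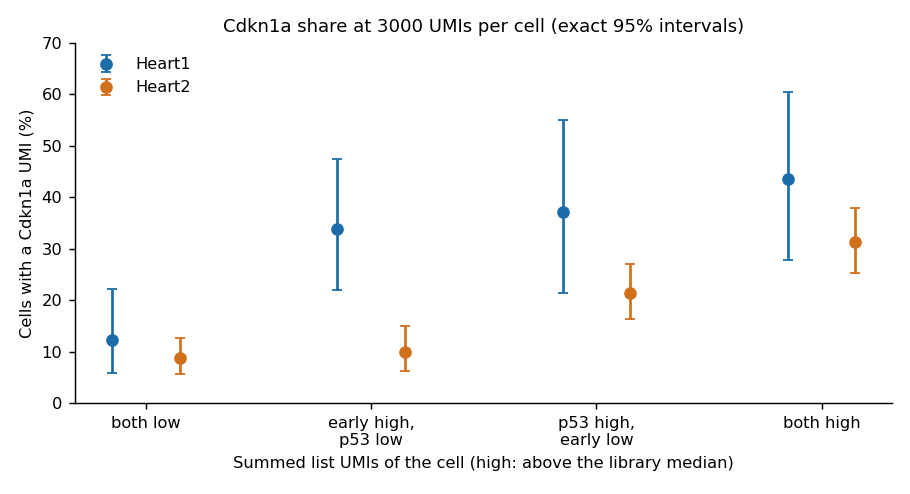
Share of fibroblasts with a Cdkn1a UMI (percent, at 3000 UMIs per cell) by whether p53-target and early-response UMIs were above the library-wide medians, in each library, with 95% exact binomial intervals. The share goes from 12.3% to 43.6% in Heart1 and from 8.76% to 31.3% in Heart2.

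Pairing cells within the same sub-cluster left 14 genes (0.176%) higher and 7 (0.0881%) lower by limma. Of the 191 genes that passed over all fibroblasts, 190 kept their sign and 21 passed again, and 42 of the 44 genes with 1.5-fold agreement kept both signs. Aen (1.16; limma adjusted p = 0.0226), Bax (0.68; 0.0297) and Phlda3 (0.59; 0.0297) were the p53 targets that passed again, and Fos, Zfp36, Junb and Egr1 the early-response genes. The p53 list's median was 0.59 there, and the early-response median 0.33. Paired within tertiles of summed early-response UMIs, the p53 median was 0.56 and the early-response median 0.28, and 8 p53 targets and 9 early-response genes passed. Those 8 were not the same set, since Bbc3 missed the threshold (limma adjusted p = 0.113) and Ei24 passed it (limma adjusted p = 0.0221). The tertiles were made from the early-response list itself, so smaller differences for that list were built into the pairing. Its median there cannot be set against the p53 median. Counts over all tested genes under this pairing are given in the closing section.

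Summed markers of other cell types also differed between the statuses, those of macrophages in opposite directions in the libraries. The summed macrophage markers stood at 137 against 29.2 CPM in Heart1, where 1 cell held 109 UMIs, and at 19.9 against 54.5 CPM in Heart2, where 1 cell without Cdkn1a held 61 of 139 UMIs. Without the highest cell of each sum these were 29.3 against 18.4 and 17.7 against 30.8 CPM. Of 13 macrophage markers 7 and 8 were at 0 in Heart1, Csf1r and Adgre1 in both statuses, and 0 and 2 in Heart2. Cardiomyocyte markers were lower with Cdkn1a in both (21.9 against 93.6 and 19.9 against 30.2 CPM), and endothelial markers higher in both (21.9 against 13.1 and 17.6 against 12.6 CPM). By cells, 15 against 27 and 31 against 46 had a cardiomyocyte marker, and 1 Heart1 cell without Cdkn1a held 34 UMIs. Endothelial markers were in 7 against 6 and 27 against 26 cells, and 1 Heart1 cell with Cdkn1a held 12 UMIs. Mural cell markers stood at 126 against 128 and 36.3 against 66.3 CPM, and the epicardial gene Wt1 was at 6.97 CPM or less. T cell markers were at 1.01 CPM or less and B cell markers at 0 in all 4 sums. The median share of mitochondrial UMIs was 3.06% against 3.61% in Heart1 and 4.81% against 5.23% in Heart2, and all 11 mitochondrial transcripts were below 0 in both libraries with none past the limma threshold (2 lower at an unadjusted p under 0.05, 0 with voom weights). With cells holding macrophage RNA left out, the counts past the threshold were 7 p53 targets, 15 early-response genes and 1 interferon gene. The part of these markers, of dissociation and of single cells with many UMIs in the other results was not tested.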

How the data were processed

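Single-cell RNA of mCherry-positive heart cells was read as UMIs per gene. The deposited table (15247 genes, 1426 cells) holds the natural log of 1 plus a gene's UMIs after scaling each cell to 10000. No label states this unit. It follows from the numbers, since exponentiated values less 1 added up to 10000 in each cell, and 4459440 of 4459440 values above 0 were whole multiples of the cell's step within 1e-06. UMI counts were taken from those steps. Alignment and counting used Cell Ranger 3.0.2 with mm10, per the submitters' processing notes. The tool that scaled the values, and any filter on cells or on genes, is not given in the sources used here. Such filters fix which cells and genes could be compared. Cell names carry 2 library prefixes, all columns were used (0 left out), and which sample record each is cannot be told.

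Members and lists were chosen with earlier results of these data known. Positive and negative fibroblasts were paired within 10% of UMIs, summed per library, and tested with limma 3.58.1 (R 4.3.3) on log2(CPM + 5), library as block, over 7942 genes with a UMI in at least 10% of fibroblasts of each library, with Cdkn1a and the 8 rule genes left out. The block is in the design because both sums of a library share its preparation. Negative binomial count models were not run. Sub-clusters came from scanpy 1.11.5 (resolution 0.5). A planned rule named the 12 highest and the 12 lowest genes by the smaller of a gene's 2 differences, 1 per library. It also named all tested p53 targets and cell cycle inhibitors, and up to 3 genes of each other list. Not every gene it named is described in the text. Other genes in the text are further members of these lists or genes tied to a value, chosen after their values were seen. The scripts were tested on simulated data. Alternatives numbered 16 planned and 5 added after seeing the data.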

Additional observations from a re-analysis of the deposited data

How the results depend on the processing

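Counts are given as higher and lower. The 112 and 79 genes past the limma threshold became 70 and 39 with genes detected in 1% of fibroblasts, 136 and 124 unmatched, 50 and 40 with values thinned to 3000 UMIs, and 37 and 35 with the status thinned too. They became 14 and 7 within sub-clusters, 87 and 52 with a fibroblast mean of at least 2.5, and 68 and 40 without cells holding macrophage RNA. Median-ratio scaling gave 88 and 92, and limma-voom gave 101 and 59. Alternatives added after seeing the data gave 2 and 6 (exactly 1 Cdkn1a UMI), 81 and 46 (without Cdkn2a cells), 62 and 49 (paired within early-response tertiles) and 58 and 52 (mean log value over cells). With no replicate block, limma called 0 and 0, with 102 genes at an unadjusted p under 0.05, and 0 in the 3 lists below. The 31 and 13 genes with 1.5-fold agreement became 59 and 23 with a pseudocount of 1 CPM, 13 and 4 with 20 CPM, 78 and 30 at 1% detection, and 13 and 4 at 25%. They became 67 and 61 or 96 and 122 in thinned cells, 19 and 6 within sub-clusters, 88 and 32 with at least 2 Cdkn1a UMIs, and 51 and 33 with exactly 1; early-response tertiles left 8 lower. Leaving out a library leaves a single-library fold with no test: 96 to 571 higher and 58 to 313 lower. The 8 p53 targets became 4 at 25% detection, 5 and 4 in thinned cells, 3 within sub-clusters, 5 with the fibroblast mean of 2.5, 0 with exactly 1 UMI and 4 without Cdkn2a cells. The 17 early-response genes became 8 and 5 in thinned cells, 4 within sub-clusters, 0 with 1 UMI and 9 within early-response tertiles, which were made from that same list. The 2 interferon genes became 1 unmatched or without macrophage RNA, and 0 at 25% detection, in both thinned sets, within sub-clusters, with 1 UMI and by mean log value. Of 38 named genes past the threshold, 35 never changed sign under any alternative. With exactly 1 UMI Bbc3 was at -0.34 and Cxcl1 at -0.26, and with at least 2 Mmp3 was at 0.095. The cause of these shifts was not tested. Depth limits rare genes most: at 3000 UMIs per cell the median sum of all p53 targets was 3 UMIs in Heart1 and 2 in Heart2.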
